A study of Mus musculus with 8 samples.

Results

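The genes described here encode the subunits of the nuclear RNA polymerases I, II and III and the mitochondrial RNA polymerase. They were chosen by symbol: every gene of the table whose symbol starts with Polr1, Polr2 or Polr3, together with Polrmt, Znrd1, Twistnb and Cd3eap, leaving out 1 pseudogene. This gave 32 of the 55487 genes listed, and all 32 had enough counts to be tested among 15056 genes. RNA came from whole mouse sciatic nerve on postnatal day 6 (P6), when Schwann cells divide, differentiate and form myelin. The CNP-Cdk7cKO group (genotype CNPcre/+ Cdk7lox/lox, 4 libraries) carried Cre at 1 Cnp allele and floxed Cdk7 alleles, and the Ctrl group (CNP+/+ Cdk7lox/lox, 4 libraries) carried the same floxed alleles without Cre. Cre was driven from Cnp, a gene of myelin-forming glia, so the other cells of the nerve were not the target of the deletion, and the altered Cnp allele is present in every CNP-Cdk7cKO animal.

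RNA polymerase I makes the large ribosomal RNA precursor, RNA polymerase II makes messenger RNAs and many small nuclear RNAs, and RNA polymerase III makes transfer RNAs and other short RNAs. Each has its own pair of large catalytic subunits, a set of smaller subunits of its own, and subunits that it shares with the others. The largest subunit of RNA polymerase II, the product of Polr2a, ends in a long tail of repeated heptads, the carboxy-terminal domain. Cdk7, within the general transcription factor TFIIH, phosphorylates serines of these heptads early in transcription, and the marks recruit capping and elongation factors.

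The coding sequence of that tail is shown because it encodes the part of any subunit that is a textbook substrate of Cdk7. The longest Polr2a transcript of the GENCODE annotation (GRCm38, chromosome 11, minus strand) has 29 exons and a coding sequence of 5910 bases. In it 52 heptads were found, all encoded in exon 29 between 69734443 and 69735546. Of these, 21 had the consensus sequence, and 51 had a serine at the fifth position, the residue classically phosphorylated by Cdk7. The longest stretch of consensus heptads ran from repeat 7 to repeat 21. It was written in 14 different ways for 15 identical heptads, as in the following repeats, where capitals mark the codon of the fifth-position serine.
repeat 7: tacagccctaccTCTcctagc
repeat 8: tactcgcccaccTCCcctagc
repeat 9: tactcgccaaccTCTccttcc
repeat 11: tattccccaaccTCTcctagc
repeat 13: tattctccaacaTCAcctagc
repeat 20: tactcaccaactTCTccaagc
repeat 21: tactcaccaactTCTccaagc
Repeats 20 and 21 are the pair with the same bases. The deposited counts are per gene and do not show whether this last exon was represented differently from the rest.

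Library totals lay between 18911405 and 20486866 estimated counts in CNP-Cdk7cKO and between 16897231 and 21527886 in Ctrl, and each member had at least 111 counts in every library. Cdk7 measured 9.62 to 12.7 CPM (the usual depth-scaled count, here on normalized library sizes) in CNP-Cdk7cKO and 20.6 to 22.2 CPM in Ctrl. The libraries also differed in sex: Xist was at 281 to 331 CPM in the 4 CNP-Cdk7cKO libraries and at 305 CPM in Ctrl 1, against at most 0.10 CPM in Ctrl 2, 3 and 4. Skeletal muscle markers (20 of 20 detected, 17 called lower) took 0.0123% to 0.0816% of counts in CNP-Cdk7cKO and 0.0623% to 0.627% in Ctrl. Schwann cell markers (10 of 10 detected, 6 called lower) took 10.4% to 11.3% in CNP-Cdk7cKO and 13.04% to 14.5% in Ctrl. Fibroblast and perineurial markers (8 of 8 detected, 2 called higher) took 3.16% to 3.60% in CNP-Cdk7cKO and 2.63% to 2.97% in Ctrl. Macrophage markers (6 of 6 detected, 2 called higher) took 0.029% to 0.0339% in CNP-Cdk7cKO and 0.0233% to 0.0298% in Ctrl. In whole nerve, fewer cells of a type and less RNA per cell cannot be told apart. Separate animals are not stated for the libraries, so p-values measure the spread between libraries, which may be technical.

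Polr2a was the subunit gene that stood out. It measured 266, 266, 231 and 251 CPM in CNP-Cdk7cKO 1 to 4, against 108, 114, 110 and 107 CPM in Ctrl 1 to 4. The groups lay far apart, and the lowest CNP-Cdk7cKO library, at 231 CPM, was well above the highest Ctrl library, at 114 CPM. The group means were 253 ± 16.5 CPM in CNP-Cdk7cKO and 110 ± 3.05 CPM in Ctrl (SD, n = 4 each), which is 2.31-fold. The log2 fold change was 1.21 ± 0.05 (SE), with a 95% interval of 1.09 to 1.32 (quasi-likelihood test of edgeR, Benjamini-Hochberg adjusted p = 1.03e-06). Polr2a had the second smallest p of the 15056 genes and held rank 42 by fold change among the 763 genes called higher. The gene lies on chromosome 11 from 69733997 to 69758637 (GRCm38), and no stretch of 31 bases in its transcripts was shared with a transcript of another gene. The increase passed the test under all 18 alternative settings, with a log2 fold change between 1.18 and 1.28. These included the comparison of the 4 CNP-Cdk7cKO libraries with Ctrl 1 alone, all with high Xist (1.22, edgeR quasi-likelihood adjusted p = 0.00393 with the lone Ctrl library taken to vary as the CNP-Cdk7cKO libraries do). The part that the lower Schwann cell share or the higher fibroblast and macrophage shares played in the value was not tested.

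**Figure D1:**
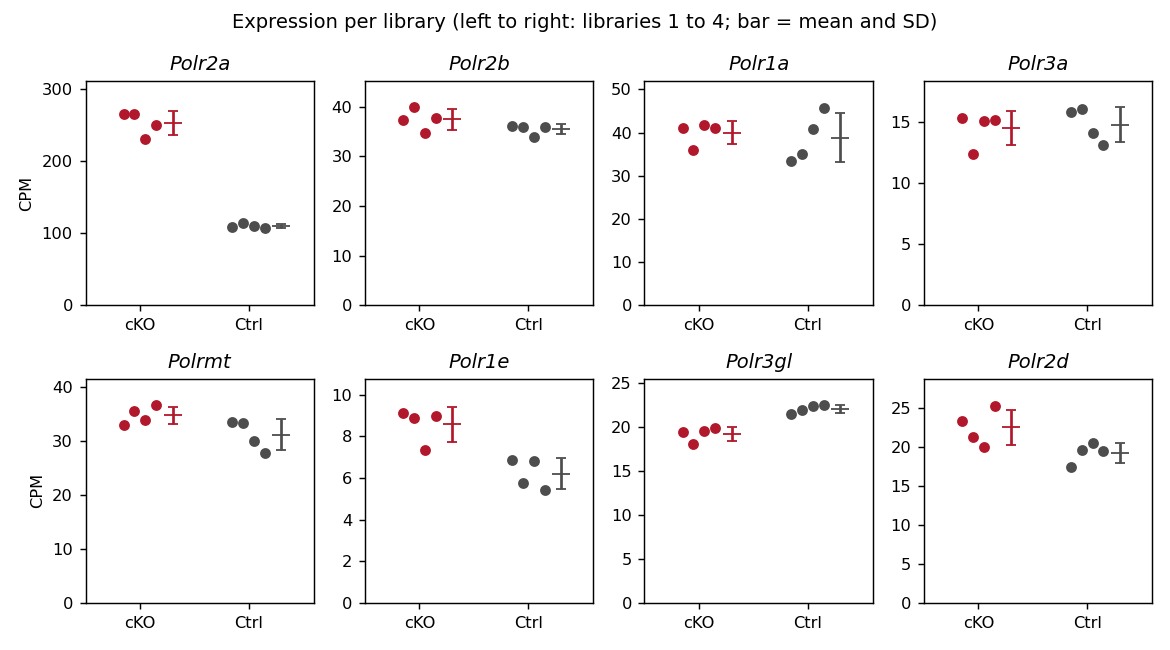
Expression of 8 polymerase genes in CPM (vertical axes, starting at 0) in each library of CNP-Cdk7cKO (red) and Ctrl (grey); points are libraries 1 to 4 from left to right and bars are the mean and SD. Polr2a lies between 231 and 266 CPM in CNP-Cdk7cKO and between 107 and 114 CPM in Ctrl, while Polr2b, Polr1a and Polr3a overlap between the groups.

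None of the other 12 genes with a Polr2 symbol passed the test. Their log2 fold changes ran from -0.02 to 0.22 with a median of 0.09, against a median of 0.00 over all genes tested, and 2 of them, Polr2d and Polr2m, had an unadjusted p under 0.05 (edgeR quasi-likelihood). DESeq2 and limma-voom also called 0 of the 12. Polr2b, the second-largest subunit, which forms the active-site cleft together with the Polr2a product, measured 37.2, 40.02, 34.8 and 37.8 CPM in CNP-Cdk7cKO 1 to 4 and 36.2, 35.9, 33.9 and 35.9 CPM in Ctrl 1 to 4. These ranges overlapped, and the log2 fold change was 0.08 ± 0.05 (SE), with a 95% interval of -0.04 to 0.20. Polr2d and Polr2g encode the stalk of RNA polymerase II. Polr2d averaged 22.5 ± 2.29 CPM in CNP-Cdk7cKO and 19.3 ± 1.30 CPM in Ctrl (log2 fold change 0.22, quasi-likelihood adjusted p = 0.112), and Polr2g 36.6 ± 3.35 CPM in CNP-Cdk7cKO and 35.1 ± 1.93 CPM in Ctrl (SD, n = 4 each). The assembly pair Polr2c and Polr2j had log2 fold changes of 0.04 and 0.11, and Polr2i, whose product acts in start-site choice and proofreading, 0.16. These 3 genes share exon bases with genes on the opposite strand, 18.1% for Polr2c with Dok4, 15.9% for Polr2j with Lrwd1 and 26.8% for Polr2i with Tbcb. The libraries were stranded, but whether the counting used strand is not given in the sources used here, so the values of these genes are less certain. In transcripts of Polr2c, 14.7% of the 31-base stretches also occur in other transcripts on the same strand. No 95% interval of the 12 genes reached above 0.40, the bound for Polr2d, whereas the interval of Polr2a began at 1.09.

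Polr2m, which encodes an RNA polymerase II-associated protein, Gdown1, that competes with initiation and termination factors, measured 110, 117, 117 and 118 CPM in CNP-Cdk7cKO 1 to 4 and 97.4, 99.5, 104 and 115 CPM in Ctrl 1 to 4. Only Ctrl 4 reached into the CNP-Cdk7cKO range, where it lay above CNP-Cdk7cKO 1 alone. The log2 fold change was 0.15 (edgeR quasi-likelihood adjusted p = 0.124), and without Ctrl 4 it was 0.20 and passed (edgeR quasi-likelihood adjusted p = 0.0250).

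The subunits that all 3 nuclear polymerases share are Polr2e, Polr2f, Polr2h, Polr2k and Polr2l. Their log2 fold changes were 0.10, 0.06, 0.08, -0.02 and 0.17, and 0 of the 5 had an unadjusted p under 0.05. Polr2e, for example, averaged 57.7 CPM in CNP-Cdk7cKO and 53.8 CPM in Ctrl, with a 95% interval of its log2 fold change from -0.01 to 0.22. The interval was widest for Polr2h, from -0.24 to 0.40. Counts of the other shared subunit genes are less certain than those of Polr2e, which shared no 31-base stretches with other genes. Of the 31-base stretches in transcripts of Polr2k, 27.3% also occur in other transcripts on the same strand. The share was 27.3% for Polr2l, 14.6% for Polr2h and 6.47% for Polr2f. Polr2f also shares 9.44% of its exon bases with a gene on the opposite strand.

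**Figure D2:**
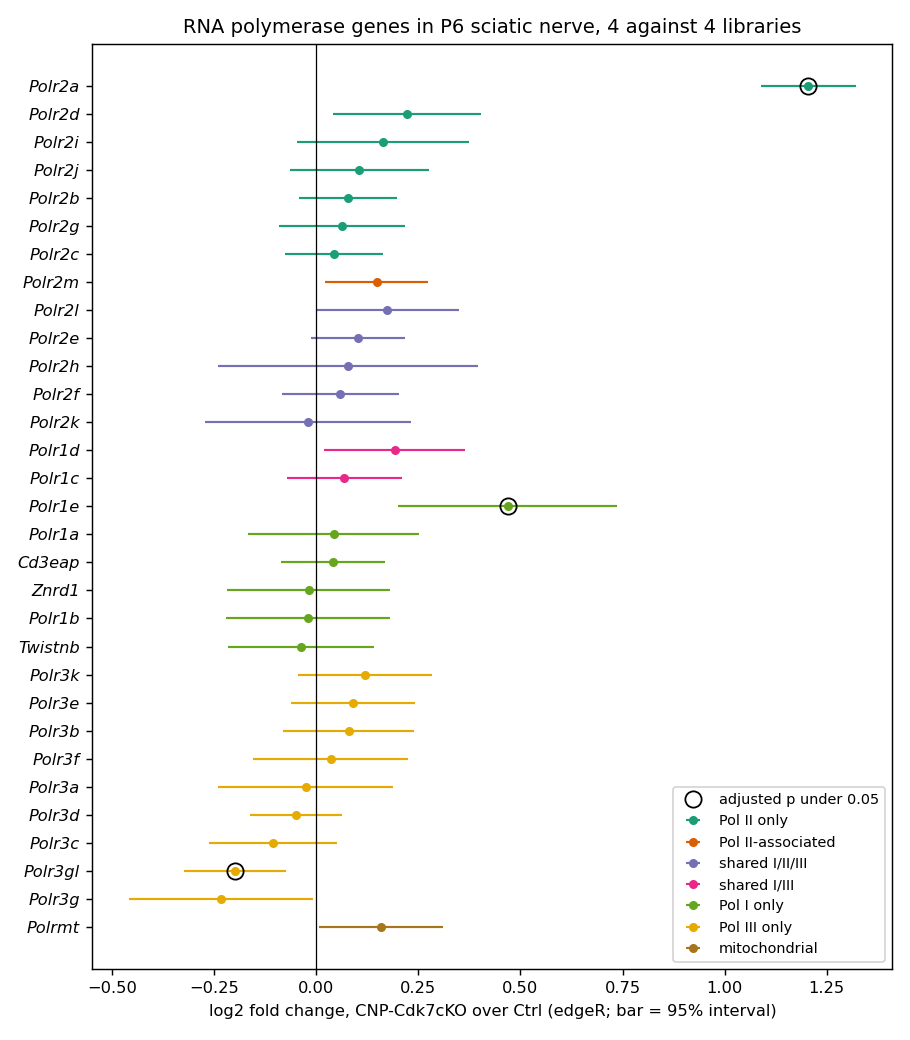
Log2 fold change of CNP-Cdk7cKO over Ctrl (horizontal axis) with its 95% interval for 31 of the 32 genes, grouped by polymerase; rings mark an edgeR adjusted p under 0.05. Polr2a at 1.21 stands to the right of every other interval, the closest being that of Polr1e, which ends at 0.74.

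Polr2a was also set against the other RNA polymerase II genes within each library, where a scaling factor cancels. The log2 CPM of Polr2a minus the mean log2 CPM of the other 12 Polr2 genes was 3.41, 3.41, 3.21 and 3.15 in CNP-Cdk7cKO 1 to 4, against 2.17, 2.30, 2.20 and 2.09 in Ctrl 1 to 4. The groups did not overlap, and their means differed by 1.10, somewhat less than the log2 fold change of Polr2a itself. For every count of Polr2b there were 6.77 ± 0.25 counts of Polr2a in CNP-Cdk7cKO and 3.10 ± 0.13 in Ctrl (SD, n = 4 each). Polr2a took 22.3% to 25.1% of all counts of the 32 genes in CNP-Cdk7cKO and 11.99% to 13.2% in Ctrl. The summed expression of the 31 other genes was 795 to 851 CPM in CNP-Cdk7cKO and 751 to 787 CPM in Ctrl, so the groups did not overlap. The sum over the other 12 Polr2 genes did not overlap either, at 386.2 to 424 CPM in CNP-Cdk7cKO and 355.1 to 385.9 CPM in Ctrl. Sums over the genes specific to RNA polymerase I, and over those specific to RNA polymerase III, overlapped between the groups.

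**Figure D3:**
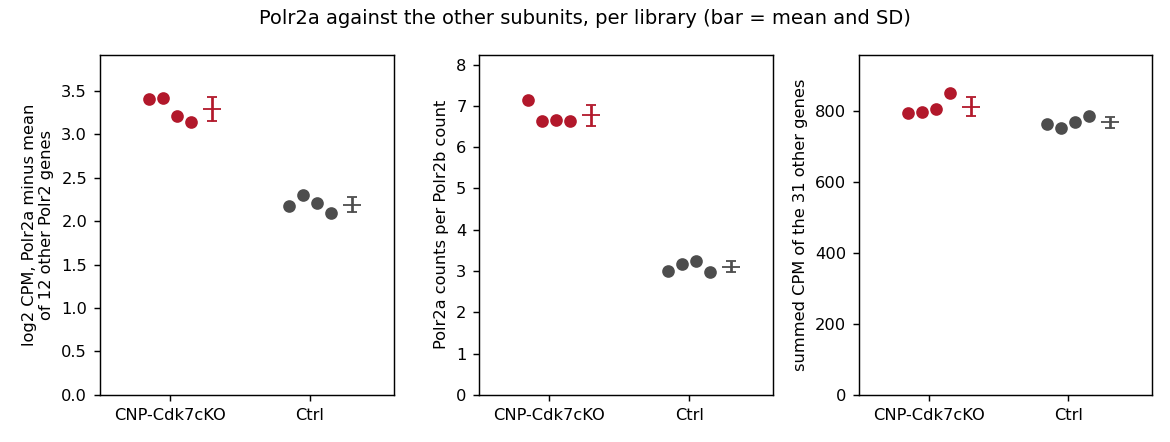
Per library, from left to right: log2 CPM of Polr2a minus the mean log2 CPM of 12 other Polr2 genes, counts of Polr2a per count of Polr2b, and summed CPM of the 31 other genes, in CNP-Cdk7cKO (red) and Ctrl (grey); bars are the mean and SD. The first measure is 3.15 to 3.41 in CNP-Cdk7cKO and 2.09 to 2.30 in Ctrl.

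Levels can be compared between genes only per length. Here they are CPM per kilobase of the longest annotated coding sequence of each gene, which leaves out untranslated regions. Counts came from whole transcripts, so genes with a short coding sequence and long untranslated regions stand too high. Polr2i has 375 coding bases and 1324 different 31-base stretches in its transcripts, against 5910 and 7115 for Polr2a. A gene whose longest annotated coding sequence is not the one mainly used stands too low. Which coding sequence was mainly used was not tested for any gene, Polr2c among them. The order of genes given here therefore holds for this scale only. On this scale Polr2a was at 42.9 ± 2.79 in CNP-Cdk7cKO and 18.6 ± 0.52 in Ctrl (SD, n = 4 each). The comparison was made among the 7 genes of subunits found in RNA polymerase II alone. Polr2a in CNP-Cdk7cKO had a value near that of Polr2i (41.0 ± 2.80), below Polr2d (52.8 ± 5.38) and above Polr2c (20.7 ± 0.88). Of these 7 genes in Ctrl, Polr2b (10.1), Polr2a and Polr2c (20.1, over 1317 coding bases) were lowest on this scale. Polr2i (36.6), Polr2d (45.2), Polr2j (58.9) and Polr2g (67.9) followed in rising order. The large subunits of the other polymerases were lower per kilobase of coding sequence, with Polr1a at 7.76 in CNP-Cdk7cKO and 7.52 in Ctrl, and Polr3a at 3.47 in CNP-Cdk7cKO and 3.54 in Ctrl.

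The largest subunits of RNA polymerases I and III and the mitochondrial enzyme did not pass the test. Polr1a measured 41.0, 36.1, 41.8 and 41.1 CPM in CNP-Cdk7cKO 1 to 4 and 33.3, 35.1, 40.9 and 45.7 CPM in Ctrl 1 to 4. The Ctrl libraries spread more widely than the CNP-Cdk7cKO libraries, and the log2 fold change was 0.04 with a 95% interval of -0.17 to 0.25. Polr3a averaged 14.5 ± 1.41 CPM in CNP-Cdk7cKO and 14.8 ± 1.43 CPM in Ctrl, with a log2 fold change of -0.03 and a 95% interval of -0.24 to 0.19. Polrmt, the single-subunit polymerase that transcribes the mitochondrial genome, averaged 34.8 CPM in CNP-Cdk7cKO and 31.2 CPM in Ctrl (log2 fold change 0.16, quasi-likelihood adjusted p = 0.172).

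Among the genes specific to RNA polymerase I, Polr1e rose. Its product forms, with that of Cd3eap, a pair that resembles a general initiation factor of RNA polymerase II. Polr1e, on chromosome 4 from 45018583 to 45036565 (GRCm38), measured 9.10, 8.89, 7.33 and 8.98 CPM in CNP-Cdk7cKO 1 to 4 and 6.86, 5.74, 6.80 and 5.41 CPM in Ctrl 1 to 4. The groups did not overlap, with CNP-Cdk7cKO 3 nearest to the Ctrl libraries. The log2 fold change was 0.47 ± 0.12 (SE), with an adjusted p of 0.0300 by edgeR's quasi-likelihood test. The call was lost with Xist as a covariate (log2 fold change 0.31, quasi-likelihood adjusted p = 0.498), with a covariate for muscle markers, against Ctrl 1 alone, and without any of CNP-Cdk7cKO 1, 2 or 4 or Ctrl 2 or 4. Its partner Cd3eap averaged 22.3 CPM in CNP-Cdk7cKO and 21.7 CPM in Ctrl (log2 fold change 0.04). The other genes of this enzyme, Polr1b, the stalk gene Twistnb and the RNA-cleavage subunit gene Znrd1, had log2 fold changes of -0.02, -0.04 and -0.02. Polr1c and Polr1d, whose products are shared by RNA polymerases I and III, had 0.07 and 0.19, neither passing; Polr1d was highest in CNP-Cdk7cKO 4 (59.1 CPM).

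Of the 10 chosen genes that are specific to RNA polymerase III, Polr3gl fell. Polr3g and Polr3gl encode alternative versions of 1 subunit of the initiation subcomplex that also holds the products of Polr3c and Polr3f; in mammals Polr3gl is the widely expressed form and Polr3g is high in embryonic stem cells. Polr3gl, on chromosome 3 from 96577872 to 96594181 (GRCm38), measured 19.5, 18.1, 19.5 and 19.9 CPM in CNP-Cdk7cKO 1 to 4 and 21.5, 22.0, 22.4 and 22.5 CPM in Ctrl 1 to 4. The groups did not overlap although the difference was small (log2 fold change -0.20 ± 0.06 (SE), adjusted p = 0.0430 by edgeR's quasi-likelihood test). With each library left out in turn, this call held only without CNP-Cdk7cKO 4. It was also lost by DESeq2 (adjusted p = 0.0863) and with Xist as a covariate (edgeR quasi-likelihood adjusted p = 0.478). Polr3gl shares 3.57% of its exon bases with a gene on the opposite strand. In its transcripts, 5.97% of the 31-base stretches also occur in other transcripts on the same strand. Polr3g likewise did not overlap between groups, at 6.48 to 7.91 CPM in CNP-Cdk7cKO and 8.02 to 8.88 CPM in Ctrl, but did not pass (log2 fold change -0.23, quasi-likelihood adjusted p = 0.176). None of the remaining genes specific to this enzyme passed the test. Polr3c had a log2 fold change of -0.11, and Polr3b, the second-largest subunit gene, was at 17.8 CPM in CNP-Cdk7cKO and 16.8 CPM in Ctrl.

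Counted over all 32 genes, 2 were called higher (6.25%, against 5.07% of all genes tested) and 1 lower (3.13%, against 6.6%). The libraries of the groups did not overlap in 4 of the 32 genes, against 18.8% of all genes tested, with 2 above Ctrl (9.34% of all genes) and 2 below it (9.51%). These shares were near or below those over all genes. The median log2 fold change of the 31 genes without Polr2a was 0.07, and 22 of the 31 (71.0%) were above 0, against a median of 0.00 and 50.7% above 0 over all genes tested.

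**Figure D4:**
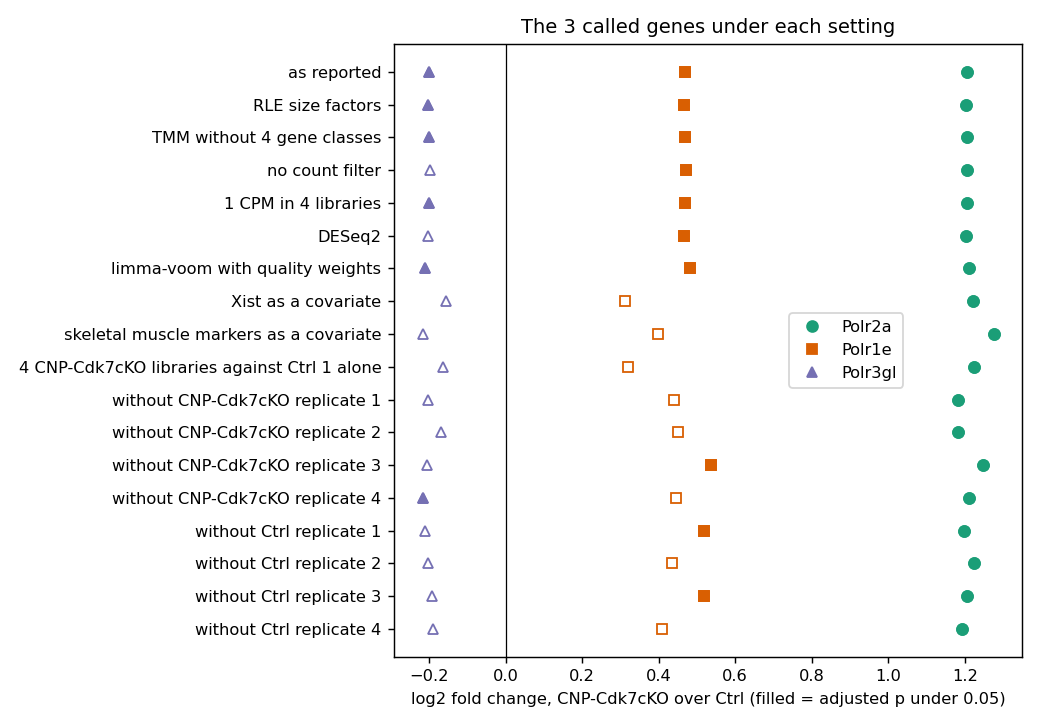
Log2 fold change of CNP-Cdk7cKO over Ctrl (horizontal axis) of the 3 called genes under the reported fit and 17 other settings (rows); filled symbols have an adjusted p under 0.05. Polr2a is filled in every row shown and stays between 1.18 and 1.28, whereas, apart from the reported fit, Polr1e is filled in 9 rows and Polr3gl in 5.

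None of the genes that flank Polr2a passed the test as higher. Among the 5 tested protein-coding genes on each side, 0 of 10 were called higher (5.07% of all genes tested) and 4 were called lower (6.6% of all genes tested) by edgeR, with the same counts by DESeq2 and limma-voom, and 1, Eif4a1, was higher at an unadjusted p under 0.05 by edgeR. Zbtb4, a zinc-finger repressor gene next to Polr2a, averaged 35.8 ± 3.18 CPM in CNP-Cdk7cKO and 45.6 ± 3.70 CPM in Ctrl (log2 fold change -0.35, quasi-likelihood adjusted p = 0.0142). Tnfsf12, which encodes a TNF-family ligand and lies on the other side, averaged 26.5 CPM in CNP-Cdk7cKO and 27.3 CPM in Ctrl (log2 fold change -0.04). Fgf11 (-0.85), Chrnb1, the gene of the muscle acetylcholine receptor beta subunit (-0.97), and Tnfsfm13, a read-through of the neighbouring ligand genes (-0.42), also fell. Eif4a1, a helicase gene of translation initiation, was at 423 CPM in CNP-Cdk7cKO and 392 CPM in Ctrl (log2 fold change 0.11, quasi-likelihood adjusted p = 0.132). Chrnb1 and the skeletal muscle markers were both lower in CNP-Cdk7cKO, and the part of muscle transcripts in the Chrnb1 value was not tested. Cnp, the gene that holds Cre, also lies on chromosome 11. It averaged 1389 CPM in CNP-Cdk7cKO and 3134 CPM in Ctrl (log2 fold change -1.17). The part that sequence linked to the altered Cnp allele played in the values of Polr2a and its neighbours was not tested.

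**Figure D5:**
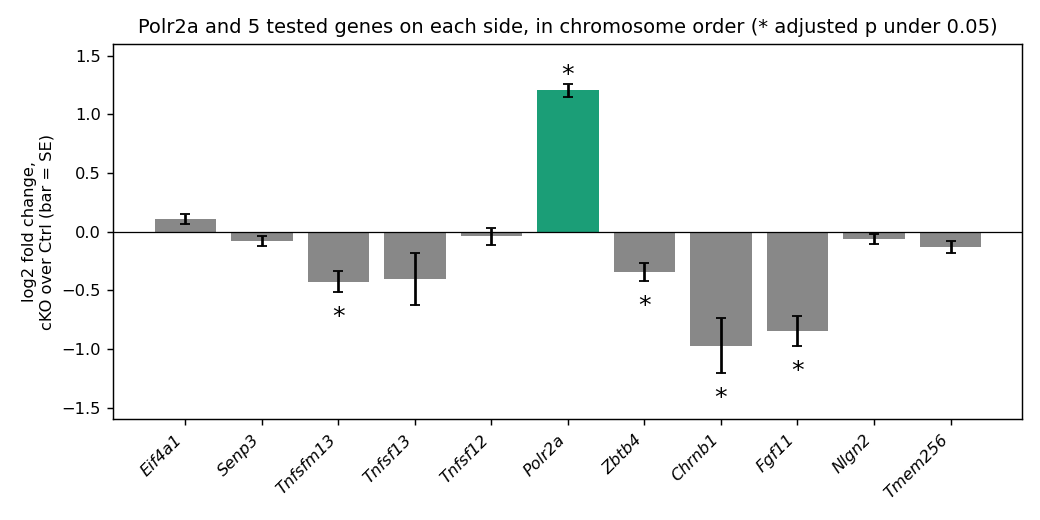
Log2 fold change of CNP-Cdk7cKO over Ctrl (vertical axis, bars with SE) for Polr2a and the 5 tested protein-coding genes on each side, in the order in which they lie on chromosome 11; stars mark an edgeR adjusted p under 0.05. Polr2a at 1.21 is the bar with a star above 0, and the 4 other starred genes lie below 0.

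Genes that act with the polymerases were read against the shares over all genes tested, 5.07% higher and 6.6% lower, and against a median log2 fold change of 0.00. Of 17 genes of polymerase assembly and nuclear import, 3 rose (17.6%): Pfdn2, a prefoldin subunit gene (33.3 CPM in CNP-Cdk7cKO and 27.4 CPM in Ctrl, log2 fold change 0.28), Rpap1, an RNA polymerase II assembly factor gene (39.2 CPM in CNP-Cdk7cKO and 33.5 CPM in Ctrl, log2 fold change 0.23), and the chaperone gene Hsp90aa1 (166 CPM in CNP-Cdk7cKO and 146 CPM in Ctrl, log2 fold change 0.19). The median of that list was 0.09, and 1 gene was called higher without CNP-Cdk7cKO 3, Ctrl 2 or Ctrl 3. Of 24 pausing and elongation factor genes (median 0.04), 1 rose (4.17%), Hexim1, which encodes a protein that restrains the P-TEFb kinase (58.8 CPM in CNP-Cdk7cKO and 47.7 CPM in Ctrl, log2 fold change 0.30). Of 16 genes of enzymes and readers of the carboxy-terminal domain (median 0.01), 1 was called (6.25%), the phosphatase gene Ctdsp2, which fell (357 CPM in CNP-Cdk7cKO and 416 CPM in Ctrl, log2 fold change -0.22). Of 17 genes of ubiquitin ligases and partners that act on RNA polymerase II (median -0.04), 1 was called (5.88%), the ligase gene Wwp2, which fell (61.3 CPM in CNP-Cdk7cKO and 73.0 CPM in Ctrl, log2 fold change -0.25). Of 17 RNA polymerase III factor genes (median 0.10), 1 was called (5.88%), Maf1, the repressor of that polymerase, which fell (55.5 CPM in CNP-Cdk7cKO and 66.5 CPM in Ctrl, log2 fold change -0.26). That list also held Crcp, a subunit gene of this enzyme outside the symbol rule, which was not called (log2 fold change -0.03). These 7 calls are by edgeR's quasi-likelihood test with adjusted p-values from 0.00872 to 0.0311, and 0 of them held with Xist as a covariate. No gene of the carboxy-terminal domain list was called lower without any one of CNP-Cdk7cKO 1, 2 or 4 or Ctrl 2, 3 or 4, and no RNA polymerase III factor gene without any one of CNP-Cdk7cKO 1 or 2 or Ctrl 1, 3 or 4. The elongation and ubiquitin ligase lists kept a count of 1 with each library left out in turn.

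In 9 RNA polymerase I factor genes and 11 genes of mitochondrial transcription, edgeR called 0, with 3 in each list at an unadjusted p under 0.05; DESeq2 also called 0, and limma-voom called 1 in each. Ubtf, which opens ribosomal DNA for RNA polymerase I, was at 176 CPM in CNP-Cdk7cKO and 168 CPM in Ctrl, and Cavin1, known also for releasing that polymerase from its template, at 631 CPM in CNP-Cdk7cKO and 587 CPM in Ctrl. The mitochondrial genes Tfam, which packages and activates the mitochondrial genome, and Lrpprc, which stabilizes its messenger RNAs, were not called. Tfam was at 24.1 CPM in CNP-Cdk7cKO and 23.7 CPM in Ctrl, and Lrpprc at 25.5 CPM in CNP-Cdk7cKO and 23.4 CPM in Ctrl.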

How the data were processed

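RNA from 8 sciatic nerve samples was made into stranded polyadenylated libraries, per the labels' protocols. The authors deposited estimated counts for each gene. STAR, Salmon and the build GRCm38 are named in the submitters' processing notes, while the settings and the annotation release were not given in the sources used here. Values were rounded to whole numbers (8.29% were not whole). Of 55487 gene identifiers, 55141 matched a symbol.

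Genes were filtered with filterByExpr, normalized by TMM, and compared by group in edgeR 4.0.16 (quasi-likelihood F test, R 4.3.3), and a gene was called when its adjusted p (Benjamini-Hochberg, 15056 genes) was under 0.05. SEs are the log2 fold change divided by the square root of F, and 95% intervals use the same fit, without adjustment. Log CPM used a prior count of 2. Alternatives used DESeq2 1.42.0, limma 3.58.1 and other filters, factors, covariates and libraries. The steps were tested on simulated data.

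Coding lengths, overlaps and sequences came from GENCODE M21 (GRCm38), in place of the RefSeq protein lengths first planned; neighbours of Polr2a came from the RefSeq table (GRCm38.p6). The members, lists and alternatives were chosen with earlier results of these data known. Any member could be named; from each accompanying list, up to 4 called genes were named in order of p (with none called, the 2 of highest mean CPM); neighbours of Polr2a could be named too. Cdk7, Cnp and Xist could be named as checks, and Crcp was named as a subunit gene outside the symbol rule. The individual values of 1 member are not reported here.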

Additional observations from a re-analysis of the deposited data

Results flagged for a closer look

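Of 66 groups of 4 libraries examined, 6 held a value whose gap to the nearest other library exceeded Dixon's 95% critical value as a share of the group's range; chance flags about 1 in 20 groups. Polr1a was low in CNP-Cdk7cKO 2 (36.1 CPM, others 41.0 to 41.8 CPM), and so was Polr3a in the same library (12.4 CPM, others 15.1 to 15.3 CPM). Polr1e was low in CNP-Cdk7cKO 3 (7.33 CPM, others 8.89 to 9.10 CPM). Polr2m was low in CNP-Cdk7cKO 1 (109.6 CPM, others 117 to 118 CPM). Polr2k was high in CNP-Cdk7cKO 4 (9.86 CPM, others 7.76 to 8.07 CPM). Polr2b was low in Ctrl 3 (33.9 CPM, others 35.9 to 36.2 CPM). The libraries of Polr2a held no such value in either group.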

How the results depend on the processing

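Over the 18 alternatives, Polr2a kept its call (log2 fold change 1.18 to 1.28), its excess over the median of the other Polr2 genes was 1.06 to 1.18, and the median of the 31 other members was 0.03 to 0.09. The counts of called members moved more. With the replicate number as a block, 1 member was called higher (Polr2a) and 0 lower. With a covariate added for Xist or for muscle markers, or Ctrl 1 as the lone control, 1 was higher and 0 lower in each. Without a count filter and by DESeq2, 0 were lower. With each library left out in turn, 1 to 2 were higher and 0 to 1 lower. The cause of these losses was not tested; each leave-one-out fit has fewer libraries, and the lone control was taken to vary as the CNP-Cdk7cKO libraries do.

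Same-numbered libraries had correlations of their deviations from the group means of 0.04, 0.08, 0.13 and 0.01. Those of different-numbered libraries ran from -0.16 to 0.17. With so few libraries, these values cannot decide whether replicate numbers pair them. The cause of a call lost under the block was therefore not read from it. Polr1e was called in 9 of 18 alternatives (log2 fold change 0.31 to 0.54) and Polr3gl in 5 (-0.22 to -0.16). The width of the intervals did not follow the counts alone. Polr1e, with 111 counts in Ctrl 2 and Ctrl 4, had an SE of 0.12. Polr2h, with at least 163 counts in every library, had an SE of 0.14. Intervals cover these 8 libraries alone. Over all genes, 763 were called higher and 994 lower, against 76 and 167 with the Xist covariate, 163 and 228 with the muscle covariate, 37 and 77 with Ctrl 1 as the lone control, 470 and 653 without Ctrl 2, and 500 higher without Ctrl 3.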
